A study of Mus musculus with 36 samples.

Results

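The immediate early transcription factor genes Egr1, Egr2, Fos, Jun, Junb, Atf3 and Ier2 and the Krüppel-like factor gene Klf4 were followed on single-colour bead arrays of whole testis from juvenile mice. All probes that the platform annotation assigns to these 8 genes were taken, 11 of 45281 probes, and 8 of them passed the detection filter. They measured 6 of the 8 genes, out of 11529 genes tested. Klf4 had 3 usable probes, Egr1, Egr2, Fos, Jun and Junb had 1 each, and Atf3 and Ier2 had none.

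The study compared mice with altered alleles of Brdt, which encodes a testis-specific double bromodomain protein, and all carried the strain label C57BL/6. In the knockout line, 4 homozygous (KO-/-) and 6 heterozygous (KO+/-) animals were taken at 17 days post partum (dpp), and 4 homozygous and 3 wild-type (KO+/+) animals at 20 dpp. In a line that lacks the first bromodomain (BD1), 3 homozygous animals (BD1-/-) were compared at 20 dpp with 4 controls, of which animals 219 and 191 were BD1+/- and animals 195 and 196 were BD1+/+. The 24 animals gave 36 arrays, 6 for each group, and 12 animals had 2 arrays, whose values were averaged before any comparison (n is the number of animals). The control at 17 dpp thus carried 1 knockout allele, while the control of the same line at 20 dpp carried none. Litters are read here from the "sib" numbers of the labels. At 17 dpp both genotypes came from litters 7, 8 and 9. At 20 dpp the 3 wild-type animals came from litter 1, as did homozygous animals 148 and 152, whereas homozygous animals 139 and 140 came from litter 2. Whether such repeats carried the same RNA is not stated in the labels.

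On GRCm38.p6, RefSeq places Klf4 at chr4:55527137-55532475, Egr1 at chr18:34861207-34864956, Egr2 at chr10:67534469-67542188, Fos at chr12:85473890-85477274, Jun at chr4:95049036-95052222, Junb at chr8:84976909-84978748, Atf3 at chr1:191170296-191183333 and Ier2 at chr8:84661331-84662852.

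Immediate early genes are transcribed within minutes of a stimulus without new protein synthesis, and their short-lived mRNAs decay soon after. Serum response factor, which binds CArG boxes, and CREB, which binds cyclic AMP response elements, are known to drive many of them. Fos and Jun family proteins pair through leucine zippers to form AP-1, EGR proteins are zinc finger factors that bind GC-rich DNA, and Atf3 is a stress-induced partner of this zipper family. Klf4 is a zinc finger factor known in mouse testis from round spermatids and Sertoli cells.

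The windows from 250 bases before to 50 bases after annotated transcription starts were read from RefSeq (GRCm38.p6) for Klf4, Egr2, Fos, Jun, Junb and Atf3, 6 of the 8 genes. Those of Klf4 and Egr2, which had genotype calls at 20 dpp, and of Fos and Junb, whose levels varied together among animals, are shown 5′ to 3′ on the strand of the gene. Capitals mark 3 motifs searched on both strands, namely the CArG box, TGACG (the core of the cyclic AMP response element) and TATAAA, and no matches overlapped.
Klf4 promoter, chr4:55532426-55532725, minus strand: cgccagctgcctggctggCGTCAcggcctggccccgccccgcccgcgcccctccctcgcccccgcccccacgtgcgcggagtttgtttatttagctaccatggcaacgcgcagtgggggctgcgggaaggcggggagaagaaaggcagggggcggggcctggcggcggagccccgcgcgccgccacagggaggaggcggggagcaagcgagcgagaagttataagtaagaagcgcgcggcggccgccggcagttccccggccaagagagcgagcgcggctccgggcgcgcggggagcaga
Egr2 promoter, chr10:67537619-67537918, plus strand: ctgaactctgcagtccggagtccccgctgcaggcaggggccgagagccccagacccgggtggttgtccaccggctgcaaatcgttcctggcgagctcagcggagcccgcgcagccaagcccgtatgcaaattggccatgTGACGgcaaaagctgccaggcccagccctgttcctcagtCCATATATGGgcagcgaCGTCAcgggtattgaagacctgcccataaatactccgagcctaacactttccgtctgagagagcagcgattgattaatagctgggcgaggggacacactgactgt
Fos promoter, chr12:85473640-85473939, plus strand: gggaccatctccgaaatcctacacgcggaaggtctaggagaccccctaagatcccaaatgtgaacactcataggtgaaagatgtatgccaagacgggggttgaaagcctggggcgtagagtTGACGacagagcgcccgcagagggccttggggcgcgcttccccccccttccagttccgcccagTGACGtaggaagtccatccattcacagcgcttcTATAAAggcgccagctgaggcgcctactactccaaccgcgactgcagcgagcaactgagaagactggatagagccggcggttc
Junb promoter, chr8:84978699-84978998, minus strand: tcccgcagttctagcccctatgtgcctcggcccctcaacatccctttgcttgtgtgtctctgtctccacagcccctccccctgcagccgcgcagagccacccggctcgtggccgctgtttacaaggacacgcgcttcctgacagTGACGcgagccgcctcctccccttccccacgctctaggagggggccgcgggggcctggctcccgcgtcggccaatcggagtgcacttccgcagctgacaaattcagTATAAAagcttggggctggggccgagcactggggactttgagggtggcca
The CArG box of the Egr2 window began 72 bases before the start, and its TGACG matches began 111 and 55 bases before it, the latter on the opposite strand. RefSeq gives 5 windows for Egr2, and 4 of them held a CArG box. The window at chr10:67537316-67537615 held a box of its own (CCTTTTTTGG), while the others with a box overlap and share the one shown. TGACG lay 129 and 66 bases before the Fos start and 106 bases before that of Junb. TATAAA lay 33 bases before the Fos start but at the annotated start itself for Junb. The Klf4 window held 1 TGACG on the opposite strand, 232 bases before the start, and none of the other motifs. Among all 32851 windows of this length, 1.63% held a CArG box, 20.8% held TGACG and 13.6% held TATAAA. These are matches of letters only.

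Array quality and the targeted gene were checked first. With a detection p below 0.01 as the limit, each array detected between 17379 and 20016 probes, and its median signal before normalization lay between 118.3 and 152.9 intensity units. Precision is limited by how few animals and arrays each group has. Values below are log2 normalised signals, given for single animals or as mean ± SD. The Brdt probe lay between 5.28 and 6.71 in KO-/- and between 8.47 and 9.52 in KO+/- animals at 17 dpp, and between 7.23 and 8.28 in KO-/- and 11.4 and 11.6 in KO+/+ animals at 20 dpp. In the BD1 line it lay between 10.2 and 10.5 in homozygous and between 10.8 and 11.7 in control animals. Of the testis markers, Sycp1 of the synaptonemal complex, Sox9 of Sertoli cells and Cyp11a1 of Leydig cells were detected on all 6 arrays of each group. Sycp3, Hormad1, Gfra1, Hsd3b1 and Ptprc were not well above background on nearly all arrays.

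Klf4 was lower in both mutant lines at 20 dpp than in their controls, and was not called at 17 dpp. At 20 dpp its most strongly hybridising probe (ILMN_1241903) read 7.34, 7.74 and 7.99 in KO+/+ animals 146, 149 and 157. It read 7.33, 6.68, 6.54 and 6.53 in KO-/- animals 139, 140, 148 and 152. The groups did not overlap, although animal 139 of litter 2 lay 0.01 below the lowest wild type. That wild type, animal 146, read 7.57 and 7.10 on its separate arrays, so the separation rests on their mean. The log2 fold change was -0.92 ± 0.26 (SE), or 1.89-fold lower (limma, adjusted p = 0.00453). In the BD1 line Klf4 read 6.31, 6.57 and 5.99 in homozygous animals 193, 197 and 222, against 6.94, 6.99, 7.61 and 7.73 in controls 219, 191, 195 and 196. Again no animals overlapped, and both BD1+/+ controls were higher than both BD1+/- controls. Both BD1+/+ controls came from litter 5, as did homozygous animal 197, while BD1+/- controls 219 and 191 came from litters 6 and 4. Genotype and litter of the controls thus cannot be told apart. The log2 fold change was -1.03 ± 0.26, or 2.04-fold lower (limma, adjusted p = 0.0113). This call was lost without control 196 (-0.89, adjusted p = 0.0587) and with heterozygous controls only (-0.68, adjusted p = 0.38). Within litter 1, which held both genotypes of the knockout line, Klf4 differed by -1.15, and with litter as a block the BD1 difference was -0.93. Without background correction the changes were smaller, at -0.54 for the knockout and -0.54 for the BD1 deletion, and both were still called.

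At 17 dpp the same probe ranged from 6.29 to 7.17 in KO+/- animals, with a median of 6.74. KO-/- animals 72, 73 and 129 read 6.73, 6.72 and 6.71, and animal 122, which had the lowest testis weight of 0.009 g, read 7.48. KO+/- animals 116 and 121, of the same litter 9, read 7.17 and 6.89, the highest of their group. The log2 fold change was 0.20 ± 0.22 (limma, adjusted p = 0.703). The knockout effect at 20 dpp was lower than that at 17 dpp by 1.12 ± 0.34 on the log2 scale (95% interval -1.81 to -0.42, limma, adjusted p = 0.0218). This call was lost without KO+/+ animal 149 (adjusted p = 0.0551) or 157 (0.0802). The effects of the BD1 deletion and of the knockout at 20 dpp differed by -0.11 ± 0.36 (95% interval -0.86 to 0.64, limma, adjusted p = 0.891).

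Among controls, Klf4 was higher by 0.98 ± 0.24 at 20 dpp (KO+/+) than at 17 dpp (KO+/-), a comparison called "with age" in what follows although genotype and litter differ too (limma, adjusted p = 0.000894). The same 3 wild-type animals enter this difference and the knockout comparison at 20 dpp. Between KO-/- animals of both ages the difference was -0.14 ± 0.24 (limma, adjusted p = 0.703), and between the control groups of both lines it was -0.37 ± 0.26 (limma, adjusted p = 0.639). The order of the group means ran from KO+/+ at 20 dpp (7.69 ± 0.33, n = 3) through the BD1 controls (7.32 ± 0.41, n = 4), KO-/- at 17 dpp (6.91 ± 0.38, n = 4), KO-/- at 20 dpp (6.77 ± 0.38, n = 4) and KO+/- at 17 dpp (6.71 ± 0.33, n = 6) to BD1-/- (6.29 ± 0.29, n = 3). Each neighbouring pair in that order had overlapping animals. The plot of each member by animal shows these levels.

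**Figure D1:**
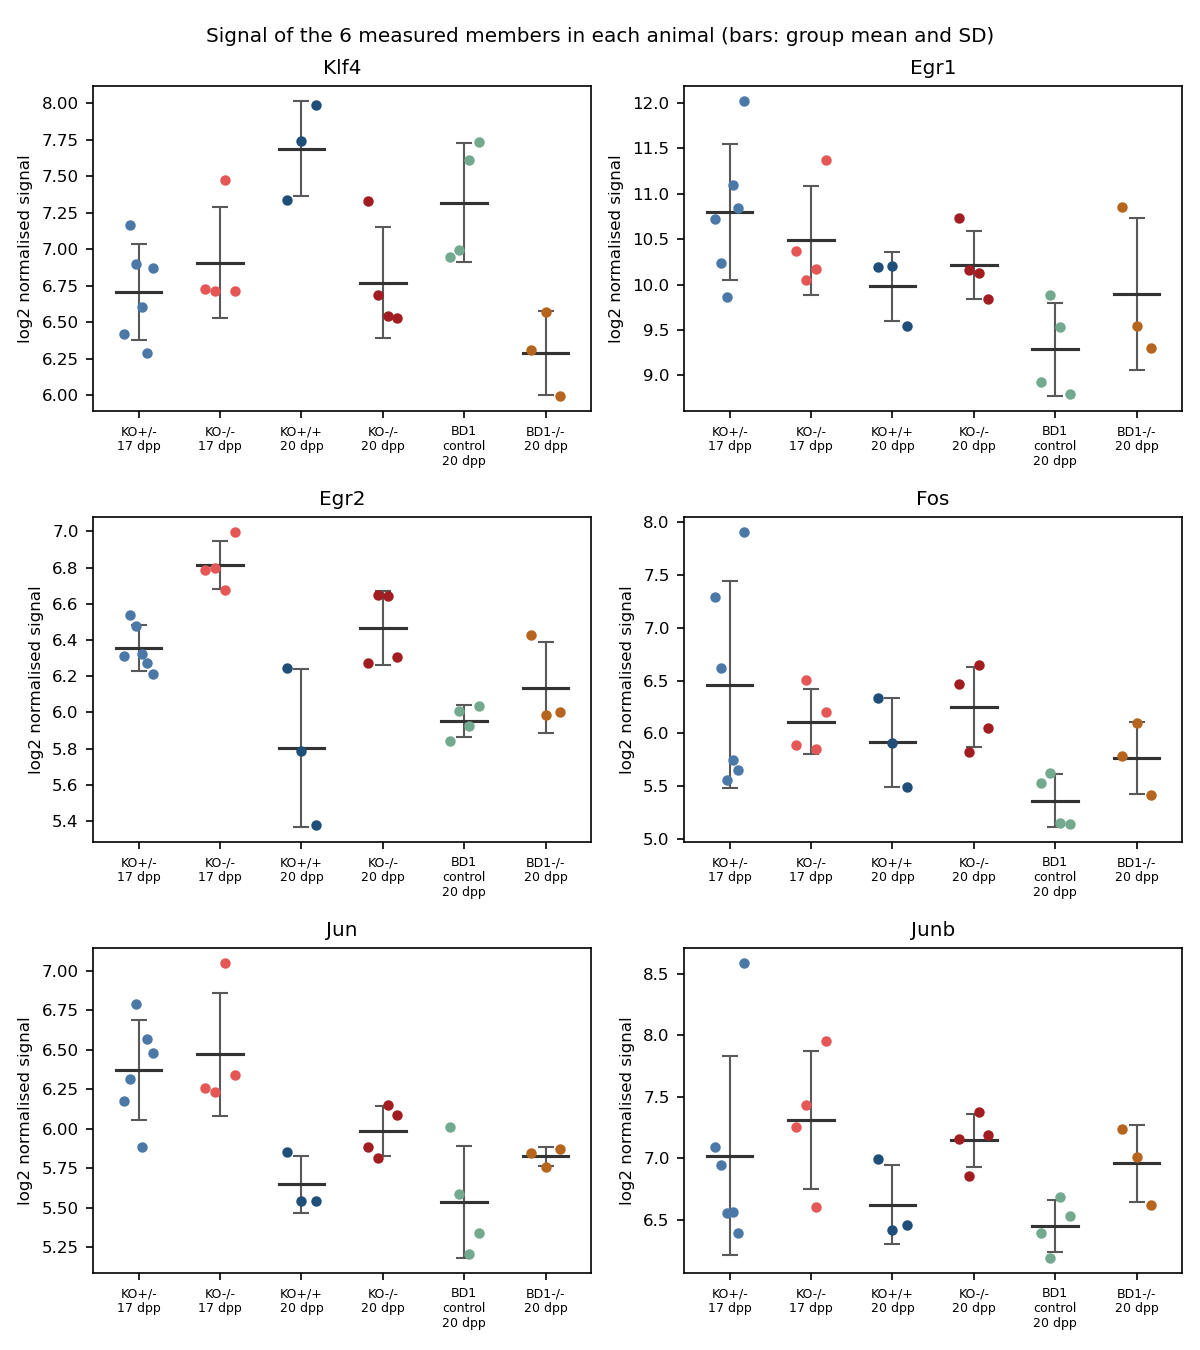
Log2 normalised signal (y axes) of the 6 measured genes in each of 24 animals by group (x axes), with points for animals, horizontal lines for group means and bars for 1 SD. Klf4 is highest in the wild-type group at 20 dpp (mean 7.69), and the top point of Egr1, Fos and Junb (12.03, 7.91 and 8.59) is the same KO+/- animal at 17 dpp.

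The lower Klf4 level in both mutant lines at 20 dpp was seen with all 3 Klf4 probes. Probe ILMN_2999439 differed by -0.71 ± 0.28 in the knockout and by -0.98 ± 0.28 with the BD1 deletion (limma, adjusted p of 0.0341 and 0.0298). Probe ILMN_1221264 differed by -0.80 ± 0.24 and by -0.89 ± 0.24 (limma, adjusted p of 0.00769 and 0.0208). With each probe tested on its own, 19.4% of 21190 probes were lower in the knockout at 20 dpp and 5.43% with the BD1 deletion. Per animal, ILMN_2999439 read 6.97, 6.90 and 7.14 in KO+/+ animals 146, 149 and 157 and 6.80, 6.61, 5.68 and 6.07 in KO-/- animals 139, 140, 148 and 152. ILMN_1221264 read 6.44, 6.54 and 7.00 in the same wild types and 5.60, 5.88, 5.88 and 6.08 in the same knockouts. Neither probe's groups overlapped, but the litter 2 animals were the highest knockouts for one probe and animal 139 was the lowest for the other.

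The probes did not give the same picture of the difference between 17 and 20 dpp. From KO+/- at 17 dpp to KO+/+ at 20 dpp, ILMN_1221264 rose by 0.76 ± 0.22 (limma, adjusted p = 0.00414), whereas ILMN_2999439 differed by 0.11 ± 0.26 (adjusted p = 0.726). Of all probes, 25.1% were higher at 20 dpp in that comparison. The change of the knockout effect between ages was -1.17 ± 0.31 for ILMN_1221264 (limma, adjusted p = 0.0126) and -0.49 ± 0.36 for ILMN_2999439 (adjusted p = 0.324). ILMN_2999439 read 6.47 to 7.40 in KO+/- animals at 17 dpp, a range that held all 3 wild-type values at 20 dpp. The files given here do not place the probes on the Klf4 transcript.

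**Figure D2:**
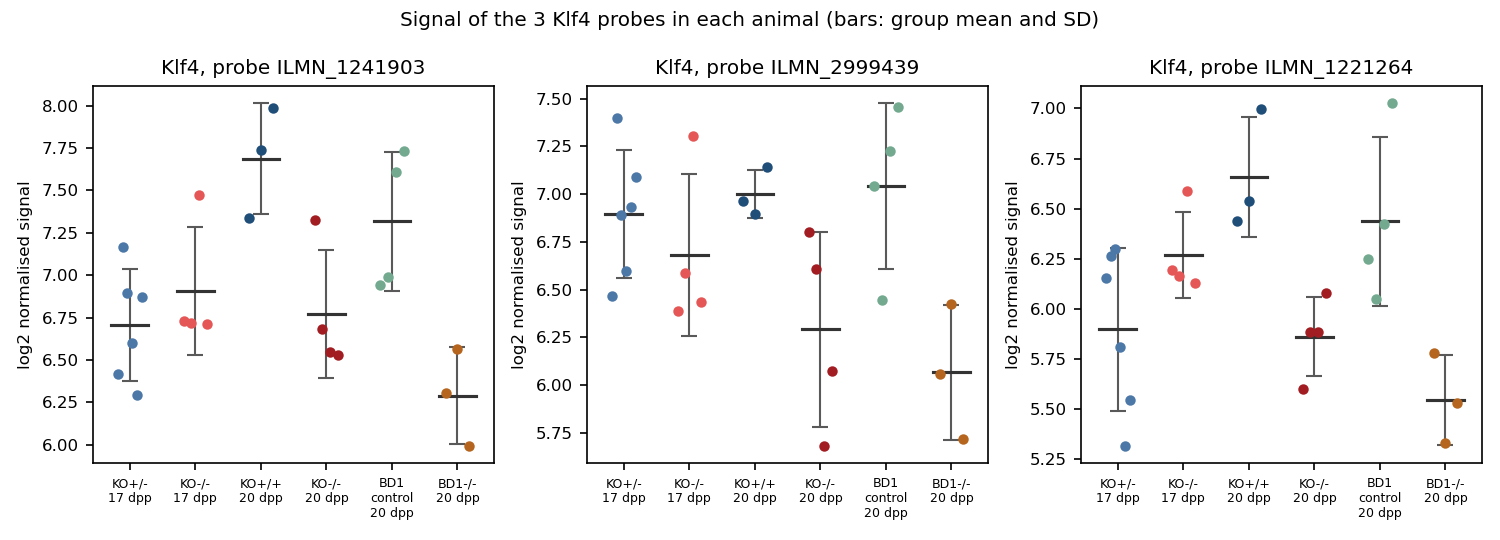
Log2 normalised signal (y axes) of the 3 Klf4 probes in each animal by group (x axes), with points for animals, lines for group means and bars for 1 SD. With each probe the homozygous groups at 20 dpp lie below their controls, while the middle panel lacks the higher wild-type level at 20 dpp relative to 17 dpp (a difference of 0.11).

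In bulk tissue, fewer cells of a type and less RNA per cell cannot be told apart. Markers of round and elongating spermatids moved in the same direction as Klf4. Of 19 tested (23 listed), 16 were lower in KO-/- than KO+/+ at 20 dpp, 11 in the BD1 deletion and 0 at 17 dpp (limma, 3 at an unadjusted p under 0.05). From KO+/- at 17 dpp to KO+/+ at 20 dpp 17 were higher. Of all genes, 20.7%, 6.4% and 1.14% were lower in the 3 genotype comparisons in that order, and 25.9% were higher with age. Of 8 pachytene spermatocyte markers tested, 4 were lower and 1 higher in the knockout at 20 dpp, 1 was lower in the BD1 deletion and 2 were lower at 17 dpp. The summed normalised signal of the spermatid markers was 59491 to 69639 in KO+/+, 26189 to 43326 in KO-/-, 52563 to 66478 in BD1 controls and 47240 to 53007 in BD1-/- animals at 20 dpp. At 17 dpp the sum of this list was 18971 to 41163 in KO+/- and 4616 to 25304 in KO-/- animals. Because these sums add signals on the linear scale, they mostly follow the brightest marker, Ldhc. Its mean log2 signal at 17 dpp was 14.7 in KO+/- and 13.5 in KO-/- animals, and the next, Odf2, was at 11.1 and 10.3. Acrv1, Akap4, Gapdhs and Prm1 were detected on all 6 arrays of KO+/+ at 20 dpp. They were on 0 of 6 arrays of both homozygous groups at 20 dpp and of both groups at 17 dpp. Such markers passed the detection filter only through the controls at 20 dpp, where they are high. Their lower calls at 20 dpp were thus built in, and at 17 dpp they could not be lower. The marker counts are therefore no independent support for the pattern of Klf4. Other markers of the list were still detected: Acr, Spaca1, Odf2, Ldhc, Spag4, Crem and Ccna1 were on all 6 arrays of KO+/+, KO-/- and BD1-/- at 20 dpp. Of these, Spaca1, Odf2, Ldhc, Spag4 and Crem were also on all 6 arrays of both groups at 17 dpp. Their detection, and the sums that follow Ldhc, thus cannot be read as spermatid content. Tssk6 and Tbpl1 were detected on more KO-/- than KO+/+ arrays. The part of these cells in the Klf4 difference was not tested.

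By the rule of highest correlation over the 24 animals, the genes most like Klf4 were Stambpl1 (Pearson r = 0.90), Efhc2 (0.87) and Dnmt3l (0.87). Stambpl1 encodes a deubiquitinating enzyme, Efhc2 an EF-hand protein, and Dnmt3l a cofactor of DNA methyltransferases. These correlations describe levels over all 6 groups, and the genes share arrays, ages and genotypes with Klf4. Stambpl1 differed by -1.89 in the knockout at 20 dpp and by -1.75 with the BD1 deletion (limma, adjusted p of 0.00101 and 0.0107). Dnmt3l differed by -1.77 and -1.67 (limma, adjusted p of 0.000148 and 0.00118), and Efhc2 by -0.84 and -0.90 (adjusted p of 0.018 and 0.0553).

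Read against all genes, few members were called. At 17 dpp, 0 of 6 measured members passed in either direction (1 at an unadjusted p under 0.05), where limma called 0.199% of all genes higher and 1.14% lower in the knockout. In KO-/- animals at 20 dpp 1 member, Egr2, was higher and 1, Klf4, was lower, beside 39.4% of all genes higher and 20.7% lower. In the BD1 deletion 1 member, Klf4, was lower and 0 were higher, beside 3.23% of all genes higher and 6.4% lower. Between KO+/- at 17 dpp and KO+/+ at 20 dpp Klf4 was higher and Egr2 and Jun were lower, beside 25.9% of all genes higher and 45.5% lower. With 2 of 6 members called in the knockout at 20 dpp and 3 of 6 with age, neither share was above the background. The median log2 fold change of the 6 members was 0.15 in the knockout at 17 dpp, 0.34 at 20 dpp, 0.35 in the BD1 deletion and -0.55 with age, against 0.04, 0.24, 0.12 and -0.26 over all genes. No member was called between KO-/- animals of both ages (2 at an unadjusted p under 0.05), between the control groups (0) or between the effects of both alleles (0), where limma called 26.8%, 1.71% and 1.25% of all genes. Klf4 alone was called between the knockout effects at both ages, beside 23.3% of all genes.

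**Figure D3:**
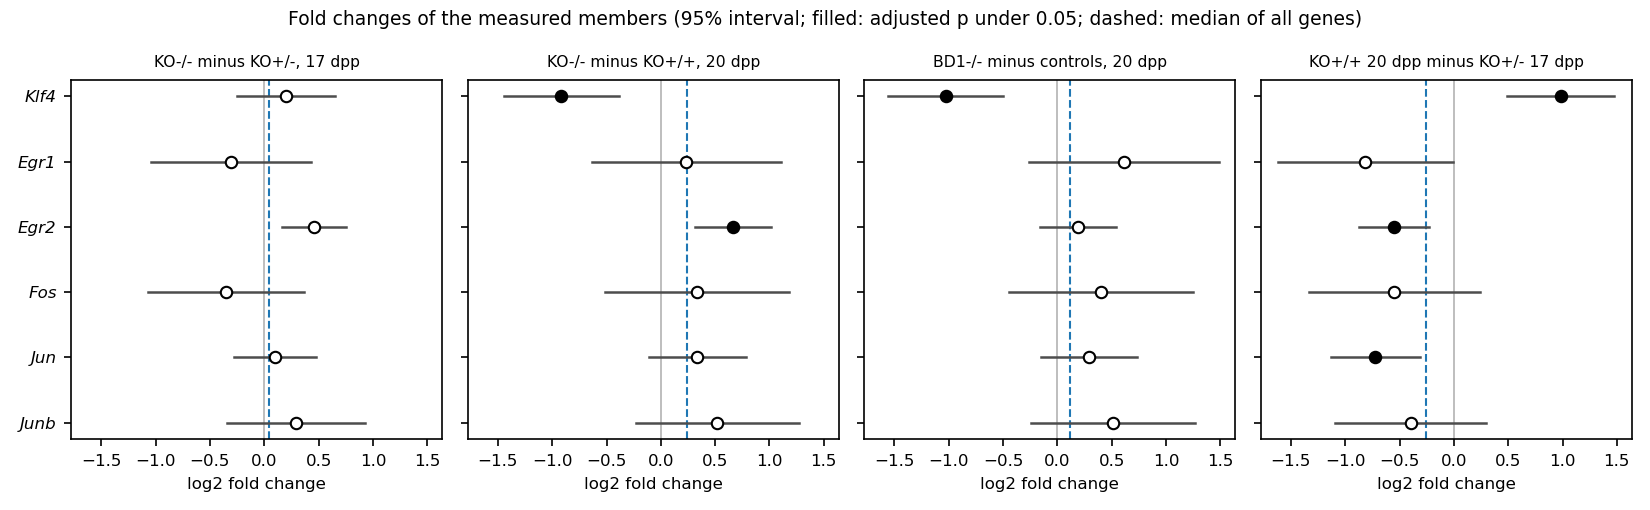
Log2 fold change (x axes) of the 6 measured members (y axis) in 4 comparisons, with 95% intervals, filled points for an adjusted p under 0.05 and a dashed line at the median of all genes. Klf4 lies at -0.92 and -1.03 in the mutants at 20 dpp, while Egr2 lies at 0.66 in the knockout with the dashed line at 0.24.

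Egr2, a zinc finger factor known from hindbrain patterning and myelination in mice, was higher in the knockout at 20 dpp. It read 6.25, 5.79 and 5.38 in KO+/+ animals 146, 149 and 157 and 6.27, 6.65, 6.64 and 6.31 in KO-/- animals 139, 140, 148 and 152. The lowest knockout lay 0.03 above the highest wild type. The log2 fold change was 0.66 ± 0.17, or 1.59-fold (limma, adjusted p = 0.00228). Relative to the median of all genes, which was 0.24, it was 0.42 (adjusted p = 0.0475), within litter 1 it was 0.67, and without background correction it was 0.26 and still called.

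At 17 dpp Egr2 ranged from 6.21 to 6.54 in KO+/- animals, with a median of 6.32. KO-/- animals 72, 73, 122 and 129 read 6.79, 6.80, 6.67 and 7.00, all above the heterozygous range. The log2 fold change of 0.46 ± 0.14 missed the threshold over all genes (limma, adjusted p = 0.112). The knockout effects at both ages differed by 0.21 ± 0.22 (95% interval -0.25 to 0.66, adjusted p = 0.489).

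In the BD1 line Egr2 read 6.43, 5.99 and 6.00 in homozygous animals 193, 197 and 222. The controls 219, 191, 195 and 196 read 5.84, 6.01, 5.92 and 6.04. Animal 193, the highest here, was also the highest of its group for Egr1 and Junb. The groups overlapped, and the log2 fold change was 0.19 ± 0.17 (limma, adjusted p = 0.448). The BD1 effect differed from the knockout effect at 20 dpp by -0.48 ± 0.24 (95% interval -0.97 to 0.02, limma, adjusted p = 0.327).

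With age, Egr2 was lower in KO+/+ animals at 20 dpp than in KO+/- animals at 17 dpp by 0.55 ± 0.16 on the log2 scale (limma, adjusted p = 0.00328). The groups overlapped, since animal 146 (6.25) lay above the lowest heterozygous value. The call was lost relative to the median of all genes (-0.30, adjusted p = 0.10) and without wild-type animal 157 (-0.34, adjusted p = 0.0687). Egr2 lay close to background, with 34 of 36 arrays detected. Its SD between repeated arrays of 1 animal was 0.24, against 0.21 between animals of a group, over 12 animals with 2 arrays. The genes most like it were Nptx2 (r = 0.88), which encodes a neuronal pentraxin, Vps41 (0.88), of vacuolar protein sorting, and Gpam (0.86), a glycerol-3-phosphate acyltransferase, over the same 24 animals. Nptx2 rose by 0.80 in the knockout at 20 dpp and by 0.45 with the BD1 deletion (limma, adjusted p of 1.46e-05 and 0.0166).

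Egr1, known in mice as a regulator of luteinizing hormone in the pituitary, had the brightest member probe and no genotype call. At 17 dpp it ranged from 9.86 to 12.03 in KO+/- animals, with a median of 10.78, and read 10.37, 10.05, 10.17 and 11.37 in KO-/- animals 72, 73, 122 and 129. At 20 dpp it read 10.19, 10.21 and 9.54 in KO+/+ and 10.74, 10.16, 10.12 and 9.84 in KO-/- animals, in the animal order given for Egr2. BD1-/- animals read 10.86, 9.54 and 9.30, and their controls 8.93, 9.88, 9.53 and 8.79. In each comparison the groups overlapped. The log2 fold changes were -0.31 ± 0.36, 0.23 ± 0.42 and 0.61 ± 0.42 (limma, adjusted p of 0.729, 0.647 and 0.313). From KO+/- at 17 dpp to KO+/+ at 20 dpp Egr1 differed by -0.82 ± 0.39 (limma, adjusted p = 0.0651). That difference passed without KO+/- animal 116 (adjusted p = 0.044) or 121 (0.0229). The genes most like it were Rgs2 (r = 0.88), a regulator of G protein signalling that is itself inducible, Klhl24 (0.87) and Pigq (0.83).

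Jun, a core subunit of AP-1, was lower with age and had no genotype call. It ranged from 5.89 to 6.79 in KO+/- animals at 17 dpp, with a median of 6.40, and read 5.85, 5.54 and 5.54 in KO+/+ animals 146, 149 and 157. The highest wild type, animal 146, lay just below the lowest heterozygous animal. Its separate arrays read 6.05 and 5.66, so 1 of them lay within the heterozygous range. The SD of Jun between repeated arrays of 1 animal was 0.28, against 0.29 between animals of a group. The log2 fold change was -0.72 ± 0.20, or 1.65-fold lower (limma, adjusted p = 0.0028), and -0.47 relative to the median of all genes (adjusted p = 0.0459). The probe was detected on 6 of 6 heterozygous and 3 of 6 wild-type arrays.

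In KO-/- animals Jun read 6.26, 6.23, 7.05 and 6.34 at 17 dpp and 5.88, 5.82, 6.15 and 6.09 at 20 dpp. Animal 122 was again the highest of its group. BD1-/- animals read between 5.76 and 5.87 and their controls between 5.20 and 6.01. The log2 fold changes were 0.10 ± 0.18 in the knockout at 17 dpp, 0.34 ± 0.22 at 20 dpp and 0.29 ± 0.22 in the BD1 deletion (limma, adjusted p of 0.846, 0.179 and 0.349). Pmepa1, Pip4p2 and Bdh2 were the genes most like Jun (r of 0.91, 0.91 and 0.91), and 6 genes in all had an r above 0.9.

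Fos, the partner of Jun in AP-1, lay near background at 20 dpp and had no genotype call. It ranged from 5.56 to 7.91 in KO+/- animals at 17 dpp, with a median of 6.18, and read 5.89, 6.50, 5.85 and 6.20 in KO-/- animals. At 20 dpp it read 6.34, 5.91 and 5.50 in KO+/+ animals and 6.47, 5.82, 6.65 and 6.05 in KO-/- animals. BD1-/- animals read 5.78, 6.10 and 5.42, and the BD1 controls, where the probe was detected on 1 of 6 arrays, read 5.53, 5.63, 5.16 and 5.15. The groups overlapped in each comparison, with log2 fold changes of -0.35 ± 0.35, 0.34 ± 0.41 and 0.40 ± 0.41 (limma, adjusted p of 0.668, 0.49 and 0.504).

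Junb, an AP-1 subunit related to Jun, was detected on all 36 arrays with probe ILMN_1220034 and on 0 with its other probe. It ranged from 6.39 to 8.59 in KO+/- animals at 17 dpp, with a median of 6.75, and read 7.25, 7.44, 6.60 and 7.96 in KO-/- animals. At 20 dpp it read 6.99, 6.42 and 6.45 in KO+/+ animals and 7.15, 6.85, 7.38 and 7.19 in KO-/- animals. BD1-/- animals read 7.24, 7.01 and 6.62, and their controls between 6.19 and 6.68. Knockout animal 140 lay within the wild-type range, and BD1-/- animal 222 lay within that of its controls. The log2 fold changes were 0.29 ± 0.31, 0.52 ± 0.36 and 0.51 ± 0.36 (limma, adjusted p of 0.698, 0.22 and 0.331). In a fit of both 20 dpp groups of the knockout line alone, Junb passed (adjusted p = 0.0322).

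Atf3 and Ier2, a nuclear immediate early response protein, were not well above background on any of 36 arrays, as was Junb probe ILMN_1254833. Their lowest detection p over all arrays was 0.063, 0.187 and 0.0214 respectively. Atf3 lay between 4.39 and 5.03 and Ier2 between 4.42 and 4.76, so no fold is given for either.

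Fos, Junb and Egr1 differed more between animals of a group than most genes. Their SD between animals within groups was 0.59, 0.52 and 0.61, at the 97.2, 95.5 and 97.6 percentile of all genes, where the median gene had 0.23. The SD of Klf4 was 0.36 (86.3 percentile), that of Jun 0.29 (72.9) and that of Egr2 0.21 (41.7). Between repeated arrays of an animal the SD was 0.23 for Fos, 0.26 for Junb and 0.13 for Egr1. It was 0.19 for Klf4 and 0.28 for Jun. For Egr1 the SD between animals was thus 4.62 times that between arrays, against 2.59 for Fos and 2.01 for Junb.

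KO+/- animal 131 had the highest level of all 24 animals for each of these 3 genes, with 12.03 for Egr1, 7.91 for Fos and 8.59 for Junb. It read 6.48 for Jun and 6.87 for Klf4, within the range of the other heterozygous animals, and 6.21 for Egr2, the lowest of its group. Over all 24 animals, as deviations from group means, Fos and Junb correlated with a Pearson r of 0.78 (permutation within groups, p = 0.00045, adjusted p = 0.0067 over 15 pairs of members). Their Spearman rho was 0.71 (permutation p = 0.00091, adjusted p = 0.014). Without animals 121 and 131, the farthest from the median of Fos, r was 0.59. Without animal 131 alone r was 0.59 and the adjusted p was 0.065. As deviations from the mean of group and litter, with animal 131 kept, r was 0.94 (permutation, adjusted p = 0.044). Animals that were the only one of their litter in a group, such as all 3 BD1-/- animals, have no deviation there. That value thus rests on fewer animals and is no check on the part of animal 131.

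Egr1 correlated with Junb at r = 0.59 (permutation p = 0.019, adjusted p = 0.15, rho = 0.35) and with Fos at r = 0.45 (permutation p = 0.085, adjusted p = 0.43, rho = 0.29). Without the 2 animals farthest from the median of Egr1 these were 0.34 and 0.25. Egr2, Jun and Klf4 had no pair that passed, with r between -0.24 and 0.20 over the 12 pairs that hold at least 1 of them. Over levels of all groups, Fos was most like Ap3b2 (r = 0.82), which encodes a neuronal adaptor subunit, Junb (0.76) and Lct (0.71), and Junb was most like Fos, Tnfaip8l2 (0.75) and Rab3b (0.72).

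**Figure D4:**
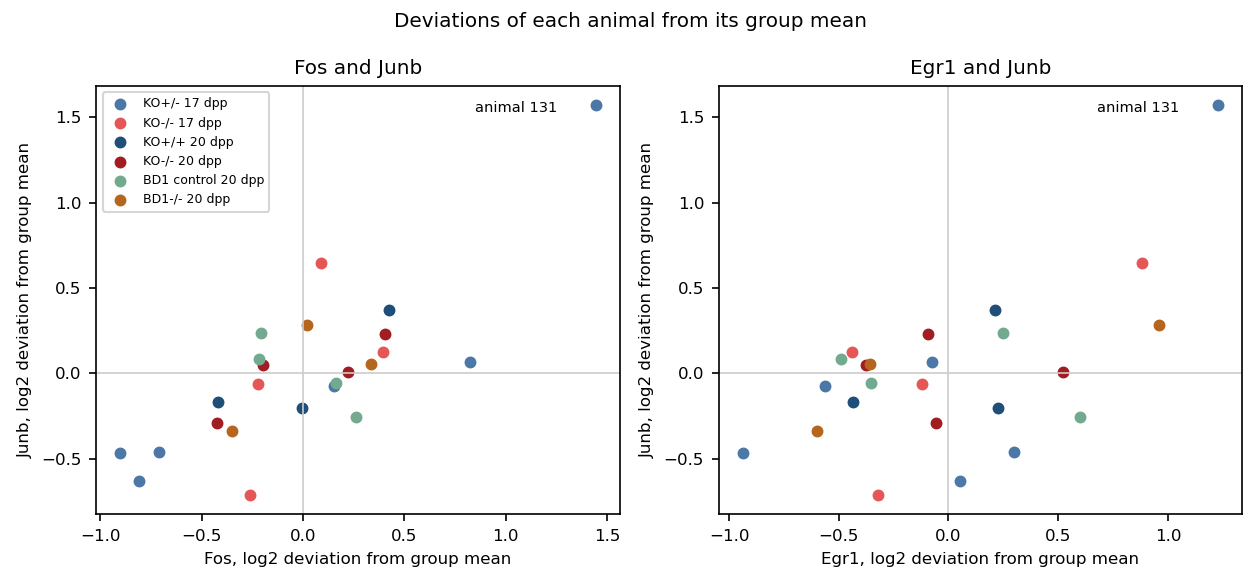
Deviation of each of 24 animals from its group mean in log2 signal, for Fos (x axis) against Junb (y axis) and for Egr1 (x axis) against Junb (y axis), with points coloured by group. Fos and Junb deviated together (r = 0.78, and 0.59 without animal 131 at the upper right).

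The 49 other immediate early genes of a list drawn up for these factors gave 35 tested genes. At 17 dpp 0 passed in either direction (limma, 4 at an unadjusted p under 0.05). In the knockout at 20 dpp 19 were higher and 2 lower (54.3% and 5.71%, beside 39.4% and 20.7% of all genes). The median log2 fold change was 0.48 against 0.24 over all genes. Relative to that median 4 were higher and 3 lower (11.4% and 8.57%, against 14.9% and 28.7% of all genes), and within litter 1 alone 9 were higher and 2 lower (25.7% and 5.71%, against 23.7% and 14.5% of all genes). In the BD1 deletion 1 was lower and 0 higher (8 at an unadjusted p under 0.05), beside 6.4% and 3.23% of all genes. The median was 0.31 against 0.12. From KO+/- at 17 dpp to KO+/+ at 20 dpp 27 were lower and 2 higher (77.1% and 5.71%, beside 45.5% and 25.9% of all genes). The median was -0.75 against -0.26 over all genes. Relative to that median 19 were lower and 2 higher (54.3% and 5.71%, against 28.2% and 34.3% of all genes). The shares of all genes given here for each fit apply to the lists that follow too.

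Arc and Csrnp1 went the other way from most of the list, as Klf4 did. Arc, the activity-regulated cytoskeleton-associated gene of neurons, was at 10.5 ± 0.18 (n = 3) in KO+/+ and 6.71 ± 0.22 (n = 4) in KO-/- animals at 20 dpp, and fell by 3.77 ± 0.32 on the log2 scale (limma, adjusted p = 2.94e-09). BD1-/- animals had 8.96 ± 0.57 (n = 3) and their controls 10.2 ± 0.77 (n = 4), which is a change of -1.28 ± 0.32 (adjusted p = 0.0109). At 17 dpp Arc lay at 6.74 ± 0.39 in KO+/- and 6.55 ± 0.29 in KO-/- animals (adjusted p = 0.789). Csrnp1, a nuclear protein induced by axin, differed by -0.94 ± 0.19 in the knockout at 20 dpp and by 1.18 ± 0.17 between KO+/- at 17 dpp and KO+/+ at 20 dpp (limma, adjusted p of 0.000331 and 5.34e-06). Nfkbia, the inhibitor of NF-κB, rose by 0.78 and Gadd45g, a stress-inducible growth arrest gene, by 0.72 in the knockout at 20 dpp. Dusp5, a phosphatase of ERK, and Zfp36, an mRNA decay factor, were lower by 1.07 and by 0.79 on the log2 scale with age.

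Of the KLF and SP family, 12 of 24 listed genes were tested. In the knockout at 20 dpp 6 were higher and 0 lower, led by Klf13 (0.83), Klf16 (0.48), Sp1 (0.66) and Klf7 (0.64), whereas Klf4 was lower. Klf16 was also called at 17 dpp (0.34 ± 0.09, limma, adjusted p = 0.0487), as the 1 higher gene of the 12. In the BD1 deletion 0 passed (0 at an unadjusted p under 0.05). With age 9 were lower and 0 higher, among them Klf13 (-0.82), Klf7 (-0.94), Sp1 (-0.75) and Sp4 (-0.85). Relative to the median of all genes 1 of 12 was higher (8.33%) and 0 lower in the knockout, and 6 were lower and 1 higher with age. Within litter 1 alone 4 were higher (33.3%) and 0 lower in the knockout.

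Of the AP-1 and ATF partners, 9 of 20 were tested. In the knockout at 20 dpp 7 were higher and 1 lower, with Jdp2, a Jun dimerization protein, at 1.01, Atf5 at 0.78, Mafg at 0.63 and Ddit3, a stress-induced CCAAT enhancer binding factor, at -0.59. Jdp2 also rose in the BD1 deletion (0.66 ± 0.21, limma, adjusted p = 0.0496), the 1 call there, and 0 were called at 17 dpp (1 at an unadjusted p under 0.05). With age 7 were lower, such as Atf5 (-0.88), Atf7 (-0.78) and Atf2 (-0.39), and Ddit3 was higher (1.17). Set against that median, 3 of 9 partners were higher (33.3%) and 1 lower (11.1%) in KO-/- than KO+/+ animals at 20 dpp, and 6 were lower (66.7%) and 1 higher with age. Within litter 1 alone 3 were higher and 0 lower in the knockout.

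Of the genes that signal to immediate early promoters, 15 of 28 were tested, and 10 were higher and 0 lower in KO-/- than KO+/+ animals at 20 dpp. Among them were the kinase genes Araf (0.85), Rps6ka3 (0.76) and Map2k4 (0.62) and Srf (0.77), which encodes serum response factor. Relative to the median of all genes 5 of 15 were higher (33.3%) and 2 lower (13.3%), and within litter 1 alone 6 were higher (40.0%) and 0 lower. In the BD1 deletion Mrtfb, a cofactor of serum response factor, was the 1 gene called (0.56 ± 0.16, limma, adjusted p = 0.024), and at 17 dpp 0 were called (1 at an unadjusted p under 0.05). With age 11 were lower and 1 higher, including Elk4 (-1.19), Rps6ka3 (-1.06), Map2k4 (-1.03) and Araf (-0.96), and relative to the median 8 were lower (53.3%) and 2 higher.

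Of the genes for AU-rich mRNA decay and deadenylation, which shorten the lives of such mRNAs, 16 of 18 were tested. In the knockout at 20 dpp 4 were higher and 2 lower (25% and 12.5%), both below the shares of all genes. Among them were Zfp36l1 at 0.66, the deadenylase genes Cnot6l at 0.47 and Cnot7 at 0.41, and the scaffold gene Cnot1 at -0.41. Relative to the median of all genes 0 were higher and 3 lower (18.8%), and within litter 1 alone 4 were higher and 2 lower. Cnot3 was the 1 call in the BD1 deletion (0.36 ± 0.11, limma, adjusted p = 0.0317), and at 17 dpp 0 were called (3 at an unadjusted p under 0.05). With age 6 were lower, such as Zfp36l1 (-0.80) and Cnot6l (-0.57), and 3 were higher, such as Btg1 (0.47), against 4 and 4 relative to the median. Of 10 stress-inducible heat shock genes, all tested, 4 were higher and 2 lower (40% and 20%) in KO-/- than KO+/+ animals at 20 dpp. Both shares were near those of all genes. Among these genes were Hspe1 (0.90), Hspd1 (0.83), Bag3 (-1.43) and Dnajb1 (-0.60). Set against the median of all genes, and also within litter 1 alone, 2 were higher and 2 lower. Bag3 was lower in the BD1 deletion too (-0.70 ± 0.19, limma, adjusted p = 0.0239), and 0 were called at 17 dpp (1 at an unadjusted p under 0.05). With age 5 were lower, such as Hspa1a (-0.87) and Hspd1 (-0.93), and 3 were higher, among them Bag3 (1.35) and Dnajb1 (0.92), against 5 and 4 relative to the median.

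Markers of Sertoli cells and spermatogonia moved in the direction of Egr2 and of most listed genes that were called in the main fit. The markers were not counted relative to the median of all genes. In the knockout at 20 dpp 13 of 15 Sertoli cell and 10 of 14 spermatogonia markers were higher and 0 lower, beside 39.4% of all genes higher. With age 13 of 15 and 11 of 14 were lower and 0 higher, beside 45.5% of all genes lower. Their summed signal was 52222 to 61950 in KO+/+ and 76571 to 84980 in KO-/- animals for Sertoli cells, and 6503 to 7506 and 9751 to 13217 for spermatogonia. At 17 dpp it was 74384 to 87523 in KO+/- and 83414 to 89560 in KO-/- animals for Sertoli cells, and 12549 to 15119 and 13361 to 16562 for spermatogonia, with 0 of either list called (limma, 4 Sertoli cell and 2 spermatogonia markers at an unadjusted p under 0.05). In the BD1 deletion 1 of 15 and 1 of 14 were higher, beside 3.23% of all genes. The sums there were 61603 to 76383 against 46606 to 67458 and 7678 to 10089 against 6624 to 9103. Of macrophage and blood markers 5 of 8 were higher in the knockout at 20 dpp, of Leydig cell markers 4 of 8, of fibroblast markers 2 of 5, of peritubular myoid markers 1 of 6 and of endothelial markers 0 of 5. Against the 39.4% of all genes, the Leydig cell (50%) and fibroblast (40%) shares were near the background. The peritubular myoid (16.7%) and endothelial shares were below it. Gata4 of Sertoli cells was detected on 0 of 6 KO+/+ and 2 of 6 KO-/- arrays at 20 dpp. The part of these cells in the member differences was not tested.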

How the data were processed

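Members and gene lists were chosen with earlier results of these data known. The authors deposited probe signals as intensity on a linear scale, a detection p-value per probe and array, and a matrix of processed intensity values, used as an alternative only. The submitters' processing notes name GenomeStudio 2011.1, and no label states a background subtraction. All 108 columns were used. Probes were named through the platform annotation, with symbols updated through RefSeq (GRCm38.p6).

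Signals were background-corrected, quantile-normalised and put on the log2 scale with neqc of limma 3.58.1 (offset 16, R 4.3.3). Arrays of 1 animal were averaged, since they share mouse number, litter and weight. Probes detected at p under 0.01 on all arrays of at least 3 animals were kept (21190), and a gene was read from its kept probe with the highest mean. lmFit and eBayes with an intensity trend were fitted over all 6 groups, with Benjamini-Hochberg adjustment over 11529 genes and calls at an adjusted p under 0.05. P-values measure the spread between these animals. Correlations used 100000 permutations within groups, two-sided.

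Besides the members, the 3 genes of highest correlation with each member were named, and of each pathway list up to 4 called genes with the smallest adjusted p in a comparison. The replicate numbers of the labels do not mark a shared animal and follow litters only in part. They were tried as a block only. Alternatives changed the normalization, background correction, offset, filter, probe, trend, groups in the fit, litter, brightness, controls and animals.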

Additional observations from a re-analysis of the deposited data

Results flagged for a closer look

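Of 32 groups of 4 to 6 animals tested over the 8 kept member probes, 4 held an animal whose gap to its neighbour was too large a share of the group's range by Dixon's 95% criterion, where chance gives about 1 in 20 groups. KO-/- animal 122 at 17 dpp stood above its group with 7.48 for Klf4 probe ILMN_1241903, with 6.59 for Klf4 probe ILMN_1221264 and with 7.05 for Jun. It was the only KO-/- animal of litter 9. KO+/- animals 116 and 121 of that litter were the highest of their group for both probes (7.17 and 6.89, 6.26 and 6.30). For Jun 121 was the highest (6.79), while 116 (6.32) was not. Litter and animal cannot be told apart here. KO+/- animal 131 at 17 dpp stood above its group with 8.59 for Junb.

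The knockout effect on Klf4 at 20 dpp differed from that at 17 dpp by a test of the difference itself, with a log2 difference of -1.12 (limma, adjusted p = 0.0218). The controls at both ages differed in genotype too, heterozygous at 17 dpp and wild type at 20 dpp.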

How the results depend on the processing

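Klf4 and Egr2 in the knockout at 20 dpp kept direction and call under all 16 alternatives (-1.16 to -0.54 and 0.26 to 0.70) and with each animal left out; within litter 1 alone they were at -1.15 and 0.67. The Klf4 call in the BD1 deletion was less stable: the number of members called fell from 1 to 0 with heterozygous controls only (-0.68, adjusted p = 0.38) and in a fit of both groups alone, and ranged from 0 to 1 with an animal left out, being 0 without control 196 (-0.89, adjusted p = 0.0587). The count between the knockout effects at both ages ranged from 0 to 1, being 0 without wild-type animal 149 or 157. The number of correlated pairs also ranged from 0 to 1, being 0 without animal 131. Relative to the median of all genes and to litter 1 alone were added after the data were seen. Causes were not tested.

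Signs turned only in differences that had not passed. The Klf4 difference between the effects of both alleles was 0.0011 without background correction, 0.00067 in the authors' matrix, 0.22 with litter as a block and 0.24 with heterozygous controls only, and -0.26 to 0.074 with an animal left out. Egr1 in the knockout at 20 dpp was -0.011 relative to the median. Without animals 121 and 122 Jun at 17 dpp was -0.0087 and Klf4 between KO-/- ages 0.052. With an animal left out these ranged from -0.093 to 0.18 and from -0.32 to 0.052, Egr2 between control groups from -0.065 to 0.37, and between knockout effects from -0.0072 to 0.43.

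With the replicate number as a block, all arrays and the animal as a random block, Klf4 was at -0.94 in the knockout at 20 dpp and at -1.10 with the BD1 deletion, and 4 members were called between KO+/- at 17 dpp and KO+/+ at 20 dpp, Egr1 included (adjusted p = 0.024). Same-numbered arrays were alike in part: 13 of 18 same-numbered pairs correlated above 0.1 in their deviations (-0.178 to 0.624). Each array was set against the 6 arrays of the compared group, and 9 of 18 correlated best with their own number. Many same-numbered pairs came from the same litter, so number and litter cannot be told apart in this likeness. What the numbers stand for was not tested. Signal near background limits what can be said of Atf3 and Ier2, detected on 0 of 36 arrays, and of Fos and Jun, detected on 27 and 28.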
